A study of Mus musculus with 6 samples.

Results

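The replication-dependent histone genes of mouse encode the linker histone H1 and the core histones H2A, H2B, H3 and H4. They were taken as every row of the authors' deposited table whose symbol begins with Hist1h, Hist2h, Hist3h or Hist4h and whose base mean, the mean normalized read count over all libraries, is above 0. This gave 60 genes of the 24982 rows; 9 further rows of the same symbols had a base mean of 0. By type, read from the symbol, there were 6 H1, 15 H2A, 16 H2B, 11 H3 and 12 H4 genes. Among them RefSeq annotates Hist1h2al, counted as H2A, and Hist3h2bb-ps, counted as H2B, as transcribed pseudogenes. By symbol, 48 were Hist1 on chromosome 13, 8 Hist2 on chromosome 3 and 3 Hist3 on chromosome 11, and Hist4h4 on chromosome 6 was the last. Hist1h2al starts at base 51200084 of chromosome 13, outside the cluster. The other Hist1 members lie between bases 21715711 and 23764412.

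RNA of cumulus granulosa cells, the somatic cells that surround the oocyte, was sequenced from Kun-Ming mice, an outbred stock, in 3 libraries labelled Atg5-KD and 3 labelled control. Atg5 is needed to form autophagosomes, and the Atg5-KD cells had received short hairpin RNAs against it; what the control cells received, the age of the mice and any pooling of animals are not known from the sources used here. The labels name the molecule as poly(A) RNA and describe more than one way of making the libraries, one of them with amplified cDNA. Separate cultures or mice behind the 3 libraries of each group are not stated, and the p-values then speak only for the spread among these libraries, which may be technical.

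Replication-dependent histone genes are copied into mRNA mainly while DNA is being replicated, when new chromatin needs histones in bulk. Their mRNAs are the only mRNAs of animal cells known to end without a poly(A) tail: the end is cut just after a short RNA hairpin, the histone stem-loop, which is bound by SLBP and positioned with the U7 small nuclear RNP. Some of these genes also give a longer poly(A) mRNA from a polyadenylation signal beyond the stem-loop, in particular in cells that have stopped dividing. Libraries selected or primed on poly(A) therefore hold few histone reads, and those they hold need not reflect the mRNA of dividing cells.

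The stem-loop is shown for the genes on which the values below turn. It was found in the GENCODE transcripts of 41 of the 60 members, and 19 had no match within the annotated transcript. Each sequence is 5′ to 3′ on the strand of the gene, from the GENCODE M21 transcripts on build GRCm38, with the 16 bases of the stem-loop in capitals and 5 bases on either side.
Hist1h1e (chr13:23621777-23621802, minus strand): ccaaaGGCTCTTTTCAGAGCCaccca
Hist1h1d (chr13:23555782-23555807, plus strand): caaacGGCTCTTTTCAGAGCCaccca
Hist1h1c (chr13:23739507-23739532, plus strand): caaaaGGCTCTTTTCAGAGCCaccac
Hist3h2a (chr11:58955167-58955192, plus strand): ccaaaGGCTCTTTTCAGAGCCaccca
Hist1h3e (chr13:23561898-23561923, minus strand): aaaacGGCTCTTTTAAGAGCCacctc
Hist1h4h (chr13:23531453-23531478, plus strand): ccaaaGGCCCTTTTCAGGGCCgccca
Hist1h4i (chr13:22040961-22040986, minus strand): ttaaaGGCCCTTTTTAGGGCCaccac
The form shared by Hist1h1e, Hist1h1d, Hist1h1c and Hist3h2a was the commonest, in 22 of the 41. The form of Hist1h3e was found in 6, that of Hist1h4h in 6 and that of Hist1h4i in 2. The 16 bases are thus the same in Hist1h1e and Hist1h1d, the 2 H1 genes called higher, and in Hist1h1c, which did not pass the test.

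The annotated ends beyond the stem-loop differed between members. In RefSeq, 38 of the 41 genes end within 10 bases of the stem-loop, which is the processed end without a tail. In GENCODE, 22 of the 41 transcripts run on for more than 100 bases. Their median base mean in the authors' deposited table was 4.78, against 2.03 for the 19 that stop within 100 bases, and the highest values were 407 and 20.5. A polyadenylation hexamer, AATAAA or ATTAAA starting 10 to 40 bases before the transcript end, was found in 14 of the 60 members, against 48.2% of 58797 protein-coding transcripts. The 14 with it had a median base mean of 7.24 in the authors' deposited table and the 46 without it 2.60. Of the 5 members with the highest base means, Hist1h1c, Hist3h2a, Hist1h4i and Hist2h2be carried the hexamer and Hist1h2bc did not. Hist1h1e and Hist1h1d, the H1 genes called higher, did not carry it either. What part the transcript end has in the fold changes was not tested. The annotation the authors counted on is not stated in the labels, so whether reads past the stem-loop entered the counts is unknown.

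**Figure D1:**
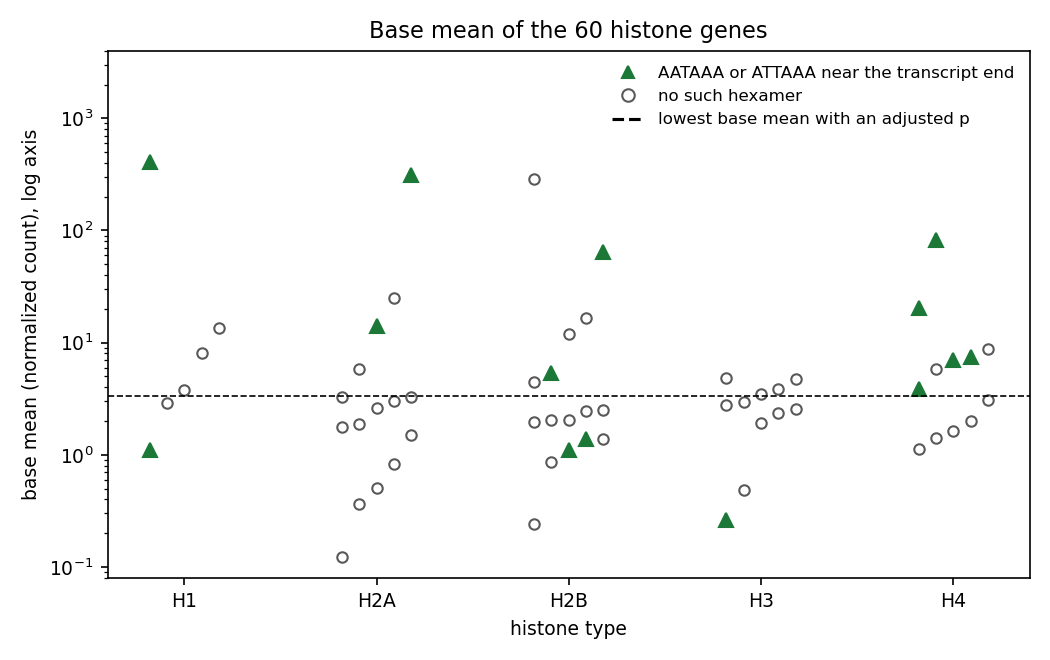
Base mean (normalized count, log axis) of each of the 60 members by histone type; triangles mark a polyadenylation hexamer near the GENCODE transcript end and open circles its absence. The dashed line marks 3.31, the lowest base mean to which the authors' deposited table gives an adjusted p; 35 members lie below it, and the 5 highest points are 64.9 or more.

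Most members had few reads. Whole reads per library could be worked out for all 60, because the base mean is a sum of whole reads each divided by the size factor of its library. The 3 libraries of each group are called a, b and c here; they cannot be tied to the replicate numbers of the labels, and their group was read from the sign of the deposited fold change. Over the 6 libraries the members had 8719 reads, a median of 16 per gene. There were 32 members with under 20 reads and 5 with over 400, and the 5 of highest base mean held 83.2% of all member reads. Members made up 0.00877% of the normalized counts of the Atg5-KD libraries and 0.0106% of those of the control libraries. These totals include Rn45s, the ribosomal RNA precursor, at 17.9% in Atg5-KD and 1.17% in control. The summed normalized counts of the members themselves had means of 1410 in Atg5-KD and 1380 in control. The authors' deposited table gives an adjusted p-value for 25 members and none for 35, whose base means were too low. Just below that limit stood Hist1h2ac and Hist1h2ah at base means of 3.26 and 3.28 with 20 reads each, and just above it Hist1h3g at 3.45 with 24 reads and Hist1h1a at 3.76 with 20 reads.

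The comparison asks which histone mRNAs differ in the libraries labelled Atg5-KD. The direction is not written in the columns of the authors' deposited table. It was taken as Atg5-KD over control, the order in which the table's name puts the groups. That name writes KO, which was read as Atg5-KD. Atg5 itself gives no check of the direction. Its log2 fold change was -0.06 ± 0.14 (SE) in the authors' deposited table, with an adjusted p of 0.822 (DESeq2's Wald test with Benjamini-Hochberg adjustment). Of the 25 members with an adjusted p, 2 rose and 0 fell at 0.05 in the authors' deposited table, where 10.4% of all 14835 tested genes were called higher and 10.5% lower, 20.9% in all. At an unadjusted p under 0.05, 4 of the 60 were higher and 1 was lower, where 12.4% and 12.3% of all 19241 rows with a p-value were. Genes with few reads are called less often in this table: of the 2883 tested genes with a base mean under 30, 4.44% were called higher and 2.25% lower, 6.69% in all, and 20 of the 25 members were in that range. The median log2 fold change of the 25 was 0.07, against 0.0042 over all tested genes.

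The genes that rose were both linker histones, Hist1h1e and Hist1h1d, which encode H1 proteins that sit on the DNA between nucleosomes. Hist1h1e had 17.1, 10.2 and 12.4 normalized counts in Atg5-KD libraries a, b and c, against 3.94, 4.48 and 0.73 in control libraries a, b and c. Every Atg5-KD library was above every control library, on only 12, 8 and 10 reads against 5, 6 and 1. In the authors' deposited table its log2 fold change was 2.12 ± 0.77 (SE), with an adjusted p of 0.0322 (DESeq2's Wald test). Hist1h1d had 17.1, 17.9 and 24.9 normalized counts in the Atg5-KD libraries, against 5.52, 8.21 and 7.30 in the control libraries. The groups again did not overlap, with 12, 14 and 20 reads in Atg5-KD and 7, 11 and 10 in control. In the authors' deposited table its log2 fold change was 1.51 ± 0.56 (SE), with an adjusted p of 0.0354 (DESeq2's Wald test). Both calls depend on single libraries. With the reads refitted without 1 library at a time, the adjusted p of Hist1h1e was 0.0341 to 0.157 and that of Hist1h1d 0.0426 to 0.125 (Wald test, 25 members refitted and all 14835 genes adjusted); neither passed 0.05 without Atg5-KD library c or without control library c. Hist1h1e also did not pass without Atg5-KD library a and Hist1h1d without control library a. Scaled to all counted reads, Rn45s included, Hist1h1d was no longer called, at a log2 fold change of 1.21 and an adjusted p of 0.0665 (Wald test). The same held with a trend on GC content and length removed, at 1.22 and 0.136 (Wald test). Hist1h1e kept its call under both, with adjusted p of 0.0441 and 0.0415 (Wald test), but falls out of the test if a base mean of at least 10 is asked for.

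Hist1h1c, the H1 gene with the most reads, did not pass the test. It had 404, 390 and 456 normalized counts in the Atg5-KD libraries, against 404, 418 and 366 in the control libraries. The groups overlapped, and in the authors' deposited table the log2 fold change was 0.07 with a 95% interval of -0.18 to 0.33 and an adjusted p of 0.763 (DESeq2's Wald test). Since Hist1h1c holds most of the H1 reads, the summed H1 count hides the lower genes: it was 448, 427 and 507 in Atg5-KD and 417, 434 and 382 in control. Without Hist1h1c, a split made after the values were seen and so a description only, the other 5 H1 genes together had 44.1, 37.0 and 51.0 normalized counts in Atg5-KD, against 12.6, 15.7 and 16.1 in control, a ratio of 2.98. Leaving out Hist1h1d and Hist1h1e as well, the 3 genes Hist1h1a, Hist1h1b and Hist1h1t had 9.96, 8.93 and 13.7 in Atg5-KD, against 3.15, 2.99 and 8.03 in control. Hist1h1a alone had 4.27, 8.93 and 4.97 in Atg5-KD and 0, 0.746 and 3.65 in control, with a log2 fold change of 2.03 ± 1.15 (SE) and an adjusted p of 0.216 in the authors' deposited table (DESeq2's Wald test). The fold changes of all 6 H1 genes were above 0 in the authors' deposited table, among them Hist1h1t, the testis-specific H1, on 7 reads in all. The share above 0 over all rows was 9718 of 19241.

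The H1 genes that rose and Hist1h1c stand on the same stretch of chromosome 13, and their promoters are shown because the members with a call are of this type. The 130 bases before each RefSeq start are given 5′ to 3′ on the strand of the gene (RefSeq, build GRCm38.p6). Capitals mark AAACACA, known as the H1 box, CCAAT in either orientation, and TATAAA.
Hist1h1e (chr13:23622559-23622688, minus strand): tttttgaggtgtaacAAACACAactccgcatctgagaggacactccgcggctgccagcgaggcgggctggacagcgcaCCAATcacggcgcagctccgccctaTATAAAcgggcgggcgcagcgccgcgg
Hist1h1d (chr13:23554902-23555031, plus strand): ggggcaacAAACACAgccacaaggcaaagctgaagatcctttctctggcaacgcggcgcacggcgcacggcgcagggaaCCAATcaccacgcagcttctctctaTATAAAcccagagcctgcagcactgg
Hist1h1c (chr13:23738677-23738806, plus strand): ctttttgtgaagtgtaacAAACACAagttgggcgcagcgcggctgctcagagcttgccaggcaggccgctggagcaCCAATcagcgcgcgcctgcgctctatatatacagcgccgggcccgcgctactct
Hist1h1a (chr13:23763538-23763667, plus strand): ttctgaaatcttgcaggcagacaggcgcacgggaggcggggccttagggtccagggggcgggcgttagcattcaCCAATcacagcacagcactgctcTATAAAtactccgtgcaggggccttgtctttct
AAACACA was found within 250 bases upstream, on either strand, in 5 of the 6 H1 promoters, all but Hist1h1a, and in 6.25% of 32851 promoters searched the same way. It begins at -115 from the start in Hist1h1e, at -122 in Hist1h1d and at -112 in Hist1h1c. CCAAT was found in all 6, against 33.8% of all promoters. It was also found in 14 of 14 H2A, 14 of 14 H2B, 8 of 9 H3 and 3 of 11 H4 promoters. TATAAA was found in 4 of the 6, with none in Hist1h1c, against 12.4% of all promoters. The octamer ATTTGCAT, known from H2B promoters, was found in 0 of the H1 promoters, in 6 of 14 H2A and 6 of 14 H2B promoters, and in 1.6% of all promoters. These matches are letters in the sequence and were not tested as sites.

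**Figure D2:**
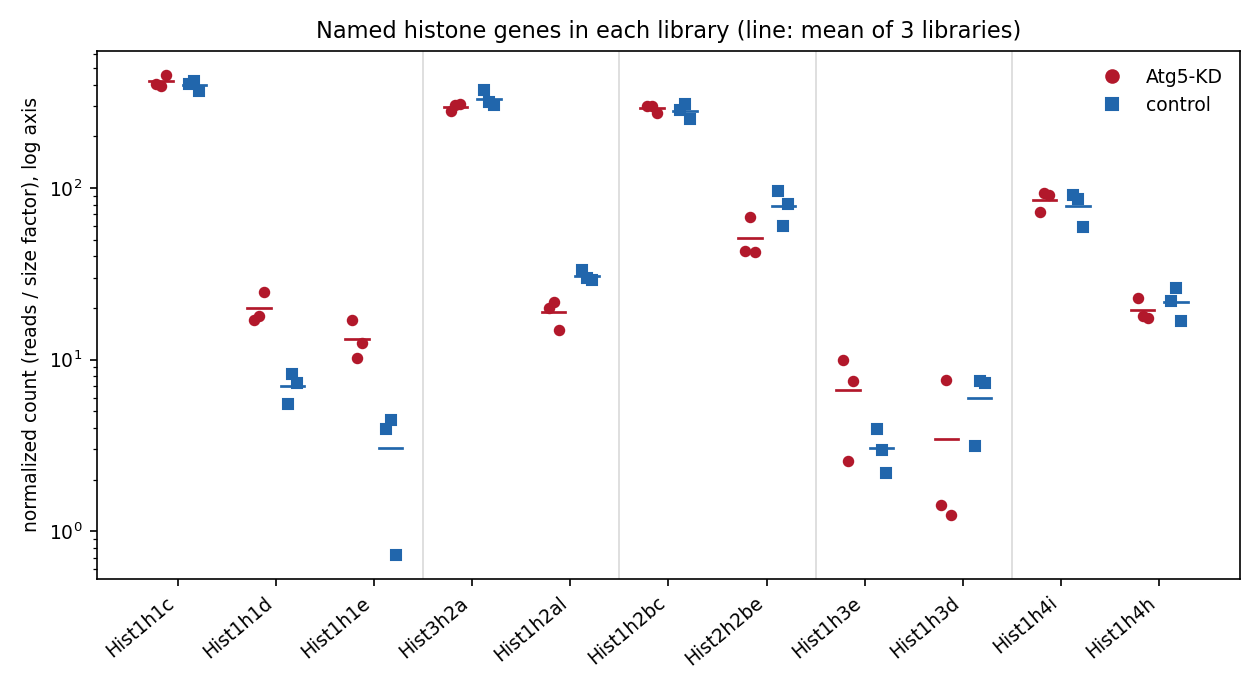
Normalized count (reads over size factor, log axis) of 11 named members in each library, Atg5-KD as circles to the left of control as squares, with the mean of 3 libraries as a line. Hist1h1e and Hist1h1d do not overlap between the groups with Atg5-KD higher, Hist1h2al does not overlap with Atg5-KD lower, and the others overlap.

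Of the 4 H2A genes with an adjusted p, 0 were called in either direction in the authors' deposited table, and their median log2 fold change was -0.23. Hist3h2a had 282, 302 and 309 normalized counts in the Atg5-KD libraries, against 372, 318 and 304 in the control libraries. The groups overlapped, and in the authors' deposited table the log2 fold change was -0.15 with a 95% interval of -0.43 to 0.13 and an adjusted p of 0.512 (DESeq2's Wald test). Part of its GENCODE transcript, 708 of 2146 exonic bases, lies in an exon of Trim17 on the same strand, so some of its reads may belong to that gene. Hist1h2al had 19.9, 21.7 and 14.9 normalized counts in Atg5-KD, against 33.1, 29.9 and 29.2 in control. All 3 Atg5-KD libraries lay below the control libraries, yet the adjusted p in the authors' deposited table was 0.230 (log2 fold change -0.71 ± 0.41, SE, DESeq2's Wald test). RefSeq annotates this row as a transcribed pseudogene, H2af-ps2, and not as a gene for an H2A protein. Scaled to all counted reads, Hist3h2a and Hist1h2al would both be called lower, with log2 fold changes of -0.45 and -1.01. That total includes Rn45s, the ribosomal RNA precursor, whose share differed between the groups.

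Of the 6 H2B genes with an adjusted p, 0 were called, with a median log2 fold change of -0.30 in the authors' deposited table. Hist1h2bc had 299, 301 and 272 normalized counts in Atg5-KD and 283, 309 and 253 in control, which overlapped. In the authors' deposited table its log2 fold change was 0.05 with a 95% interval of -0.24 to 0.33 and an adjusted p of 0.878 (DESeq2's Wald test). Hist2h2be, whose GENCODE transcript of 2620 bases ends with the hexamer, had 42.7, 67.6 and 42.3 in Atg5-KD, against 96.2, 59.7 and 81.0 in control. One library of each group overlapped the other group; in the authors' deposited table the log2 fold change was -0.63 ± 0.29 (SE), with a p of 0.0314 and an adjusted p of 0.114 (DESeq2's Wald test). Without Atg5-KD library b its adjusted p was 0.0434 (Wald test on the recovered reads). Scaled to all counted reads, Rn45s included, it was 0.00537 (Wald test). Hist1h2bg, picked after its values were seen, had 9.96, 8.93 and 8.70 in Atg5-KD, against 18.1, 10.4 and 15.3 in control, with no overlap and an adjusted p of 0.472 in the authors' deposited table (DESeq2's Wald test).

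H3 genes had the lowest summed counts of any type in these libraries. Their highest base mean in the authors' deposited table was 4.85, for Hist1h3e, and of the 4 with an adjusted p 0 were called, with a median log2 fold change of -0.53. Hist1h3e had 9.96, 2.55 and 7.46 normalized counts in Atg5-KD, against 3.94, 2.99 and 2.19 in control. The groups overlapped, with an adjusted p of 0.433 in the authors' deposited table (log2 fold change 1.13 ± 0.92, SE, DESeq2's Wald test). Hist1h3d had 1.42, 7.66 and 1.24 in Atg5-KD, against 3.15, 7.46 and 7.30 in control. These overlapped too, with an adjusted p of 0.643 in the authors' deposited table (log2 fold change -0.79 ± 0.99, SE, DESeq2's Wald test). Hist1h3h, chosen after its values were seen, had 4, 0 and 9 reads in Atg5-KD and 0, 0 and 1 in control; its unadjusted p in the authors' deposited table was 0.00973 with no adjusted p (DESeq2's Wald test). Hist1h2bn, an H2B gene chosen in the same way, had 1, 1 and 7 reads in Atg5-KD and 0, 1 and 0 in control, with an unadjusted p of 0.0322 and no adjusted p in the authors' deposited table (DESeq2's Wald test).

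H4 is the smallest core histone, and its genes make one protein from many copies. Of the 7 H4 genes with an adjusted p, 0 were called, with a median log2 fold change of 0.29 in the authors' deposited table. Hist1h4i had 72.6, 93.2 and 90.7 normalized counts in Atg5-KD, against 90.7, 86.6 and 59.1 in control. The groups overlapped, and in the authors' deposited table the log2 fold change was 0.12 with a 95% interval of -0.37 to 0.61 and an adjusted p of 0.802 (DESeq2's Wald test). Hist1h4h had 22.8, 17.9 and 17.4 in Atg5-KD, against 22.1, 26.1 and 16.8 in control, with an adjusted p of 0.851 in the authors' deposited table (log2 fold change -0.17 ± 0.45, SE, DESeq2's Wald test).

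**Figure D3:**
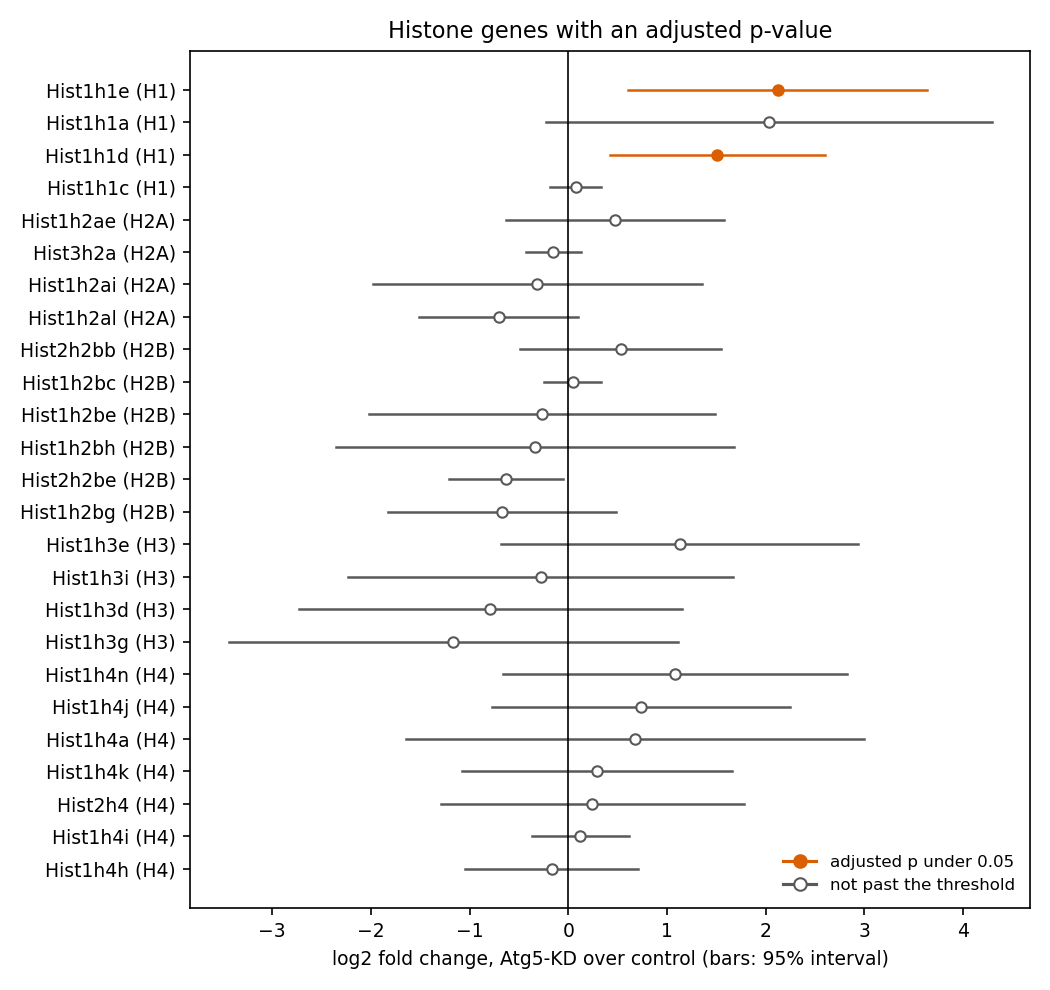
Log2 fold change, Atg5-KD over control, with its 95% interval for the 25 members with an adjusted p-value, grouped by histone type and sorted within it; filled points passed an adjusted p of 0.05. The filled points are Hist1h1e at 2.12 and Hist1h1d at 1.51, and the narrowest intervals, of Hist1h1c, Hist3h2a and Hist1h2bc, span 0.

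Per kilobase of RefSeq length, which allows levels of different genes to be set side by side, Hist3h2a had a base mean of 619 per kilobase and Hist1h1c 561 in the authors' deposited table. Hist1h4i stood at 204, Hist1h4h at 47.1 and Hist2h2be at 24.3. Hist1h1d stood at 17.4, Hist1h1e at 10.4 and Hist1h1a at 5.05 per kilobase. With GENCODE lengths, which can run past the stem-loop, Hist1h1c stood at 261, Hist1h2bc at 248 and Hist3h2a at 147. Hist1h1d, with a GENCODE transcript of 7425 bases, then stood at 1.81, Hist1h1e at 4.22 and Hist1h1a at 5.08. The order of Hist1h1c and Hist3h2a therefore depends on the annotation, as does that of Hist1h1d, Hist1h1e and Hist1h1a. RefSeq length was not used for Hist1h2bc, whose entry has 2 transcripts.

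Added up, the 60 members had 1370, 1370 and 1470 normalized counts in the Atg5-KD libraries, against 1460, 1420 and 1280 in the control libraries. The means were 1410 ± 56.3 and 1380 ± 95.8 (SD, n = 3 each), and the groups overlapped. In these bulk samples, fewer cells of a type and less RNA per cell cannot be told apart. The summed H2A count was 332, 366 and 372 in Atg5-KD against 437, 398 and 366 in control, H2B 400, 419 and 383 against 430, 418 and 382, H3 35.6, 24.2 and 42.3 against 29.2, 26.1 and 24.1, and H4 158, 138 and 168 against 145, 140 and 120. Each of these 4 types overlapped between the groups. Without the 5 genes of highest base mean, the other 55 had 273, 219 and 301 in Atg5-KD and 212, 224 and 212 in control; Atg5-KD library b fell within the control range. Of the 55 members with a base mean under 30, 7 had every Atg5-KD library above every control library and 3 had every one below. Among all 7230 rows of that range for which reads could be worked out, those shares were 8.7% and 7.59%. The 7 were Hist1h1a, Hist1h1d, Hist1h1e, Hist1h2ag, Hist1h2bb, Hist1h2bn and Hist1h4d, and the 3 were Hist1h2ab, Hist1h2al and Hist1h2bg. In 5 members every Atg5-KD library had 0 reads; their control libraries held 1 to 4 reads in all, so no fold is given.

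**Figure D4:**
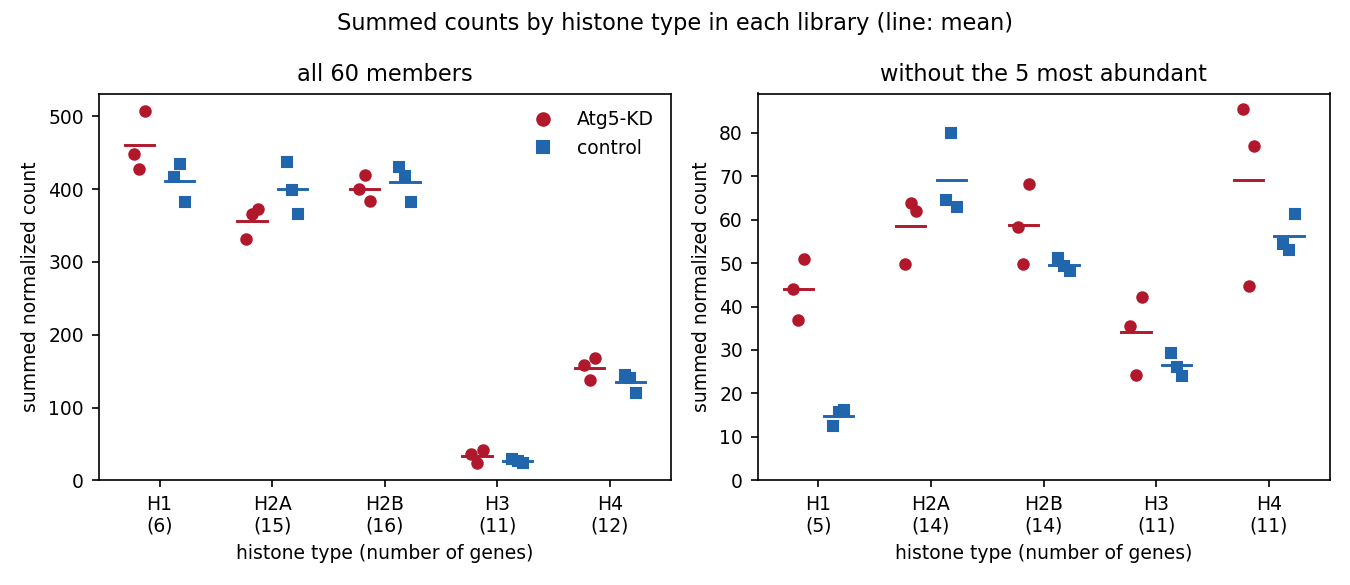
Summed normalized count of the genes of each histone type in each library, for all 60 members on the left and without the 5 of highest base mean on the right; Atg5-KD is left of control and lines are means of 3 libraries. The 5 lower H1 genes sit at 37.0 to 51.0 in Atg5-KD and 12.6 to 16.1 in control, while every other type overlaps between the groups.

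Reads of near-identical histone genes can be split between copies by the counting. A stretch of 150 bases, the read length, that occurs in the transcript of another gene was found in 45 of the 60 members. In 14 members over 50% of all 150-base stretches, taken singly and not as read pairs, were shared in this way. Hist2h3c1 and Hist2h2aa2 shared all of theirs. Of the 9 rows at a base mean of 0, 7 shared over 50%, so a 0 there does not show that the gene was silent. Hist1h1d, Hist1h1c and Hist1h1a shared none. Hist1h1e shared 19.5% with Hist1h2be and Gm11398, whose annotated exons overlap its own on the same strand; Hist1h2be had a log2 fold change of -0.27 and an adjusted p of 0.883 in the authors' deposited table (DESeq2's Wald test). In GENCODE, 18 members overlap an exon on the opposite strand, and the labels do not give the strandedness of the libraries.

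Most of the other RNAs listed as without a standard poly(A) tail that could be tested were higher in Atg5-KD. Of 20 listed, 7 had no row and 4 had a base mean of 0. The row of Neat1, which is among those listed, covers all its transcripts, so any with a poly(A) tail cannot be told apart. Of 7 tested, 5 rose and 0 fell in the authors' deposited table, with a median log2 fold change of 1.18. Over all 14835 tested genes, 10.4% were called higher and 10.5% lower. Rn45s, the ribosomal RNA precursor, rose by 4.24 ± 0.32 (log2, SE), with an adjusted p of 2.55e-37 (DESeq2's Wald test), and made up 17.9% of the normalized counts in Atg5-KD against 1.17% in control, as computed from the authors' deposited table. Malat1, a nuclear RNA whose end is a triple helix, rose by 1.82, Neat1 by 0.99, and Rmrp, the RNA of RNase MRP, by 1.18 in the authors' deposited table. Rpph1, the RNA of RNase P and the fifth that rose, stood at 0.79 there. The histone mRNAs also lack a tail in their main form. The 5 abundant members stood between -0.63 and 0.12 on the same scale in the authors' deposited table. Of these, Hist1h1c, Hist3h2a, Hist1h4i and Hist2h2be carry the polyadenylation hexamer. The other 55 members together had a mean of 264 normalized counts in Atg5-KD and 216 in control, with Atg5-KD library b within the control range. What part the amount of RNA without a tail has in the H1 values was not tested.

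Genes that make or read the histone mRNA end were called in both directions. Of the 22 tested, 4 rose and 1 fell in the authors' deposited table, where 20.9% of all tested genes were called, with a median log2 fold change of -0.0047. The split turned to 0 higher and 11 lower when scaled to all counted reads, Rn45s included. Casp8ap2 (FLASH), which works with the U7 particle, stood at 0.42, Npat, the histone gene activator, at 0.35, Ncbp1, the nuclear cap-binding subunit, at 0.31, and Cpsf2, a subunit of the cleavage complex, at 0.30, all called in the authors' deposited table. Ctif, which serves translation of capped mRNA and is named as the 1 gene that fell, stood at -0.35 there. Slbp, the stem-loop binding protein itself, did not pass, at 0.15 ± 0.13 (log2, SE) and an adjusted p of 0.435 in the authors' deposited table (DESeq2's Wald test). Histone chaperones, which carry histones to DNA, were called 2 higher and 2 lower of 21 in the authors' deposited table, with a median of -0.07. This also stands beside 20.9% called over all tested genes. Atrx stood at 0.51 and Daxx, its partner for H3.3, at 0.38; Asf1b stood at -0.53 and Nap1l1 at -0.38.

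Replacement histones, many of whose genes give poly(A) mRNA all through the cell cycle, were lower in Atg5-KD wherever one passed the test. Of 11 tested, 0 rose and 4 fell in the authors' deposited table, with a median log2 fold change of -0.19. Over all 14835 tested genes, 10.4% were called higher and 10.5% lower. H1fx, a replacement linker histone, fell by 1.31 on the log2 scale (SE 0.20, adjusted p 2.77e-09, DESeq2's Wald test) in the authors' deposited table, to an estimated 102 normalized counts in Atg5-KD against 253 in control. H2afx, the variant phosphorylated at DNA breaks, whose gene gives both stem-loop and poly(A) mRNA, fell by 0.92 (adjusted p 3.15e-10, DESeq2's Wald test), H2afv by 0.64 and H2afj by 0.41 in the authors' deposited table. The H3.3 genes H3f3a and H3f3b did not pass, at -0.13 and 0.16 in the authors' deposited table. The difference in fold change between H1fx and the Hist1h1 genes was not tested.

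Most genes of DNA replication had fold changes below 0, and few passed the test. Of 43 tested, 0 rose and 3 fell in the authors' deposited table, with a median log2 fold change of -0.16 and 38 of 43 below 0, while 10.5% of all tested genes fell. The 3 were Dut, which removes dUTP, at -0.51, Mcm6 at -0.40 and Mcm7 at -0.32, both subunits of the replicative helicase. Pcna, the replication clamp, stood at -0.15 with an adjusted p of 0.321 in the authors' deposited table (DESeq2's Wald test). Of 26 genes of G2 and mitosis, 0 rose and 4 fell in the authors' deposited table: Aurkb at -0.54, Cdc20 at -0.45, Ube2c at -0.39 and Plk1 at -0.38. In that list 17 fold changes were below 0 and 9 above. Of 7 CDK inhibitors, Cdkn1a at 0.36 and Cdkn1b at 0.34 rose and Cdkn2b at -0.58 fell in the authors' deposited table. There 10.4% of all tested genes were called higher and 10.5% lower. Scaled to all counted reads, Rn45s included, 35 replication genes and 18 G2 and mitosis genes were lower. Under that scaling 0 of either were higher, and 0 CDK inhibitors were higher.

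**Figure D5:**
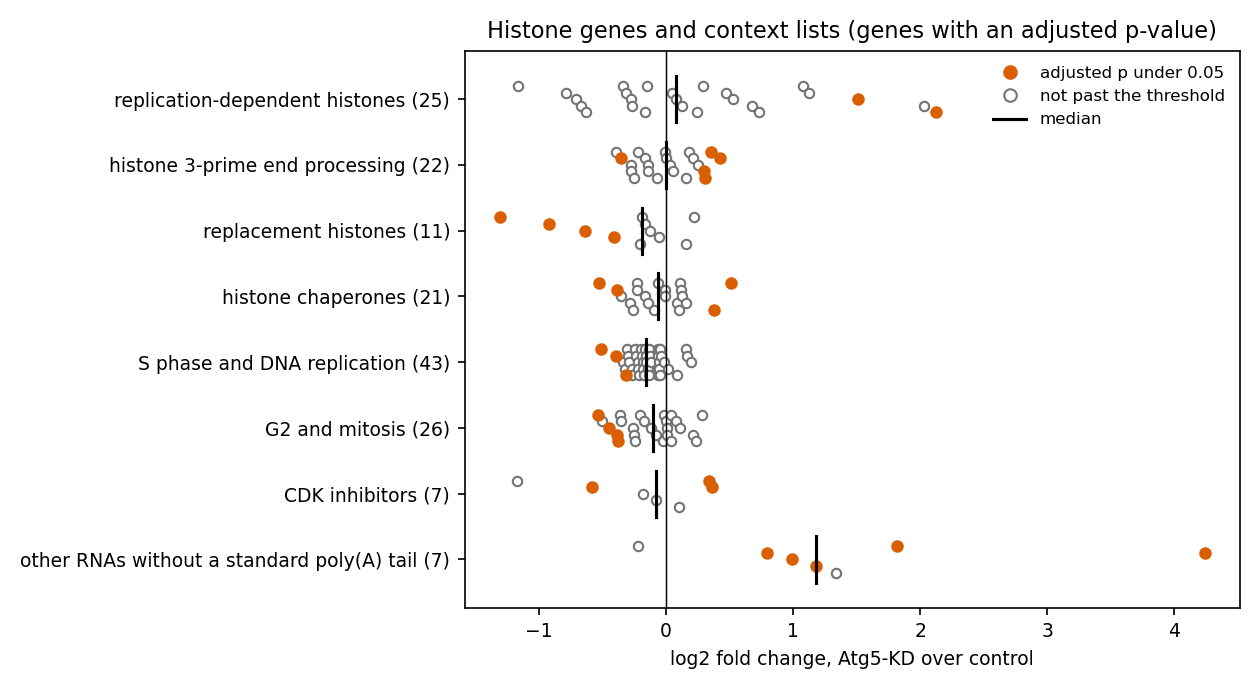
Log2 fold change, Atg5-KD over control, of the genes with an adjusted p-value among the histone members and 7 lists of related genes; filled points passed an adjusted p of 0.05 and the black line is the median of each list. The histone medians sit at 0.07, replication genes at -0.16, replacement histones at -0.19 and the other RNAs without a standard tail at 1.18.

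Depth and the markers of other cell types differed between the groups. From the size factors, a library held an estimated 12200000 counted reads in Atg5-KD and 17300000 in control. All 12 granulosa markers had a base mean above 0; their summed normalized count was 98500 in Atg5-KD and 103000 in control, and 3 rose and 4 fell of 11 tested. Leukocyte markers were lower in 9 of 12, with a sum of 565 in Atg5-KD against 2250 in control. Theca and stroma markers were lower in 7 of 8 tested, and all 9 summed to 5080 in Atg5-KD against 8770 in control. Of 6 tested oocyte markers 0 passed, and all 12 summed to 91.5 in Atg5-KD against 80.9 in control. Of 6 tested endothelial markers 0 passed, and all 7 summed to 253 in Atg5-KD against 289 in control. Of 6 erythroid markers 5 were at 0, and Alas2 rose, at 58.9 in Atg5-KD against 15.1 in control. All these counts come from the authors' deposited table, where 10.4% of all tested genes were called higher and 10.5% lower. The part of depth and of these markers in the histone values was not tested.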

How the data were processed

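A single table was used, the authors' own comparison of 3 Atg5-KD and 3 control libraries sequenced as 150-base read pairs, per the file headers one made by DESeq2. The base mean deposited by the authors is a signal value: read counts over size factors, averaged across all libraries. Log2 fold changes and standard errors were deposited by the authors on the log2 scale. The authors deposited the Wald statistic, a score, with its p-value and the adjusted one. The submitters' processing notes list DESeq2 1.30.1, StringTie 2.1.4, featureCounts 1.6.2, STAR and the build mm10 without saying what each was used for. Of 24982 rows, 14835 have an adjusted p and 5741 are at a base mean of 0. At a tolerance of 1e-06, 0 rows departed from a Wald p with Benjamini-Hochberg adjustment.

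No column holds values per library, so the planned quasi-likelihood test could not be run, and the deposited test was used with a threshold of 0.05. Rows with a single read take only 6 base means, 3 with a positive and 3 with a negative fold change, which gave the size factors: 0.703 to 0.805 in Atg5-KD and 1.27 to 1.37 in control. Base means were then split into whole reads. All 3680 rows with a base mean of at most 2 had exactly 1 solution. For 57 members the sum settled the reads, and for Hist1h1c, Hist3h2a and Hist1h2bc the deposited fold change and standard error were needed too. The refitted fold change matched the deposited one within 1e-05 for 49 members; 10 of the other 11 have a group with at most 1 read. The split was tested on simulated data.

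Members were matched to RefSeq by symbol or synonym (60 of 60) and to promoters (53 members), and to GENCODE M21. Named genes were the called members, the 2 of highest base mean in each type, up to 4 called genes of smallest adjusted p in each list or else 2 of highest base mean, and Atg5. The lists covered histone 3′ end processing, replacement histones, chaperones, S phase and DNA replication, G2 and mitosis, CDK inhibitors, other RNAs without a standard poly(A) tail, and markers of granulosa, oocyte, leukocyte, theca and stroma, endothelial and erythroid cells. The members and lists were chosen with earlier results of these data known. Python 3.11.15, numpy 2.4.6, pandas 2.3.3 and scipy 1.17.1 were used.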

Additional observations from a re-analysis of the deposited data

How the results depend on the processing

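No paired analysis was possible because the table carries no replicate number for any library. At a threshold of 0.01, 0 histone genes and 0 H1 genes were higher; end-processing genes were called 1 higher and 0 lower, chaperones 1 lower, G2 and mitosis genes 1 lower and CDK inhibitors 0 lower. At 0.1, 4 end-processing genes, 4 chaperones and 5 replication genes were lower. With a base mean of at least 10, 1 histone gene was higher, an H1 gene (1 of 2 tested). Scaled to all counted reads, a shift of -0.30 in each log2 fold change, 534 genes were higher and 5735 lower, against 1541 and 1559 as deposited. Under it 1 histone gene was higher and 3 were lower: 1 H1 higher, 2 H2A lower and 1 H2B lower. End-processing genes were then 0 higher and 11 lower, replacement histones 9 lower, chaperones 0 higher and 13 lower, replication genes 35 lower, G2 and mitosis genes 18 lower and CDK inhibitors 0 higher. With a trend on GC content and length removed, 1 histone gene, an H1 gene, was higher, and Hist1h1d stood at 1.22 with an adjusted p of 0.136 (Wald test); end-processing genes were 1 higher, chaperones 1 higher and 4 lower, G2 and mitosis genes 2 lower, and CDK inhibitors 1 higher and 0 lower. The total used for the scaling includes Rn45s, which made up 17.9% of the normalized counts in Atg5-KD against 1.17% in control. A scaling without Rn45s was not run, and the cause of the changes under scaling and trend was not tested. Without the filter on low base means, and centred on the median, each of these counts stayed within 1.5 times. Leaving out each library in turn was added after the data were seen: 0 to 2 histone genes were higher, the H1 genes, and 0 to 1 lower, an H2B gene, Hist2h2be, with 0 to 1 in its type. Without 1 library Hist1h1e stood at 1.65 to 2.52 and Hist1h1d at 1.32 to 1.64 (log2). Of the values of single members under all alternatives, 120 kept their direction and their side of the threshold, 10 lost it and 4 gained it. The other 6 changed sign, none of them called as deposited or under the alternative: scaled to all counted reads, Hist1h1c stood at -0.22, Hist1h2bc at -0.25 and Hist1h4i at -0.18, with the trend removed Hist1h2bc stood at -0.13, and without control library c Hist1h2bc stood at -0.027 and Hist1h4i at -0.049 (log2), in ranges without 1 library of -0.027 to 0.12 and -0.049 to 0.23. Depth limits the 35 members without an adjusted p: 32 members had under 20 reads in all, and intervals cover counting error and library spread only.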
